A study of Mus musculus with 6 samples.

Results

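Etv1, Etv4, Etv5, Dusp4, Dusp6, Spry1, Spry2, Spry4, Spred1 and Spred2 are 10 genes that cells switch on when fibroblast growth factors (FGFs) activate the kinase ERK, or whose products then restrain that pathway. Their mRNA was followed in the pancreas of mouse embryos at E13.5. The genes were taken by name among the 19938 genes of the array, and each was represented by its array row of highest mean level across the 6 arrays. All 10 were found. The set was chosen by pathway with the differences between control and mutant pools on these same arrays already known, so the differences and adjusted p-values below describe these pools and are no independent test of the genes. Control pools, which the labels call wild type, were compared with mutant pools, in which Cre recombinase under the Pdx1 promoter removes exon 3 of a floxed Ctnnb1 allele (Ctnnb1tm1Mmt/+), a deletion that stabilizes β-catenin in the pancreatic epithelium. Each genotype had 3 pools, each made of 3 dissected pancreata and measured on its own Affymetrix Mouse Gene ST array. Which of the alleles the control embryos carried beyond that label was not stated. A pool mixes epithelium, the mesenchyme around it, vessels and nerves, and the study describes epithelial cells that had escaped recombination. In such pools, more cells of a type that makes an mRNA and more of that mRNA per cell cannot be told apart.

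FGFs bind receptor tyrosine kinases at the cell surface, and adaptors, Ras and a chain of kinases carry the signal to ERK. Active ERK enters the nucleus and switches on the PEA3 transcription factors Etv1, Etv4 and Etv5, and with them inhibitors that act back on the pathway: the phosphatases Dusp4 and Dusp6 remove the activating phosphates from ERK, and the Sprouty and Spred proteins block steps between receptor and ERK. Because their mRNA rises and falls with the signal, these genes are often used as a readout of it. In the embryonic pancreas, Fgf10 made by the mesenchyme keeps epithelial progenitors dividing through the epithelial form of Fgfr2.

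Array values are on the log2 scale throughout, and changes are log2 differences, mutant minus control, ± standard error, with 3 pools per genotype and adjusted p-values from limma over all genes tested. Correlations between arrays over genes were 0.989 to 0.991 among controls, 0.988 to 0.994 among mutants and 0.975 to 0.983 across genotypes. Ctnnb1 itself had a change of 0.28 ± 0.11 (adjusted p = 0.148), and its array row summarizes probes along the gene, so it is no check of the exon 3 deletion. Without mutant replicate 2, Ctnnb1 passed (adjusted p = 0.0486). The β-catenin targets Lef1, Axin2, Nkd1, Sp5 and Lgr5 were each higher in the mutants, from 0.82 for Lef1 to 4.44 for Lgr5.

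The mutant pools held more mRNA of most FGF-ERK response genes than the control pools. Of the 10 genes, 8 were higher at an adjusted p below 0.05, none was lower, and Etv1 and Spry1 did not pass the test. Over all 19938 genes, 6.59% were higher and 7.53% lower by the same rule, 14.1% in all. At an unadjusted p below 0.05 limma gave 9 of the 10 higher and 0 lower, beside 2695 higher and 2386 lower of all 19938 genes. The median change of the 10 genes was 0.76, beside a median of 0.03 over all genes. The mean of the mutant pools was above that of the control pools for 10 of 10 genes, as it was for 57.5% of all genes. In 9 of the 10 genes the 3 mutant pools all lay above the 3 control pools, as they did in 16.9% of all genes, and the exception was Etv1.

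**Figure D1:**
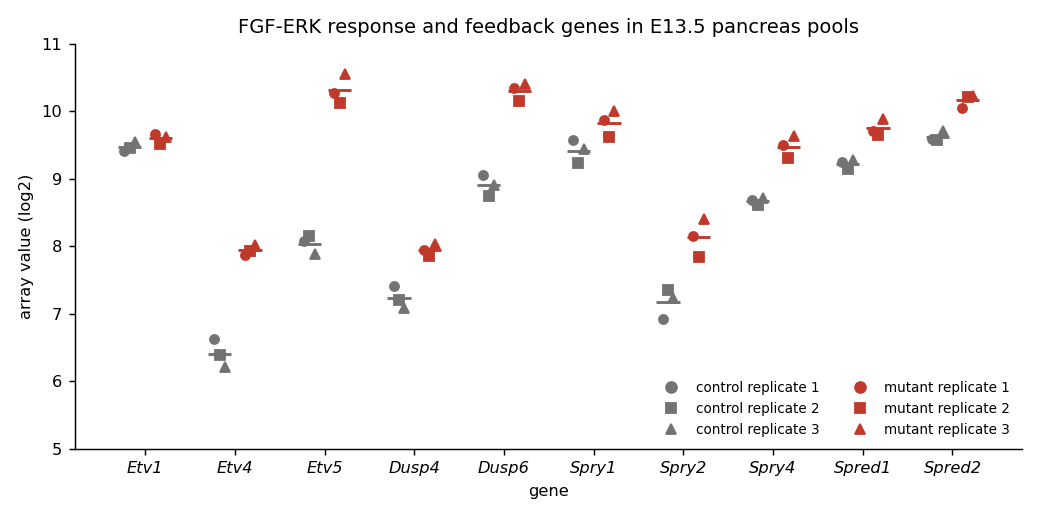
Array values (log2, vertical axis) of the 10 FGF-ERK response and feedback genes (horizontal axis). Each marker is a pool of E13.5 pancreata, grey for control and red for mutant, with the marker shape giving the replicate number, and bars are means of 3 pools. For every gene but Etv1 the mutant pools lie above all control pools, most widely so for Etv5.

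DNA before the start of 4 of the genes is shown because these genes span the range of the response: Etv5 had the largest change, Dusp6 and Spred2 rose to different degrees, and Etv1 did not pass the test. Each stretch is the 250 bases before the annotated start, written 5′ to 3′ from RefSeq on GRCm38.p6. Capitals mark matches to 4 motifs, each sought on both strands. These were the core CGGAA and the longer form CCGGAAGT bound by ETS factors such as the PEA3 group, CTTTGA, which is bound by the TCF/LEF partners of β-catenin, and TGANTCA, which is bound by AP-1.
Etv5, chr16:22439571-22439820, minus strand: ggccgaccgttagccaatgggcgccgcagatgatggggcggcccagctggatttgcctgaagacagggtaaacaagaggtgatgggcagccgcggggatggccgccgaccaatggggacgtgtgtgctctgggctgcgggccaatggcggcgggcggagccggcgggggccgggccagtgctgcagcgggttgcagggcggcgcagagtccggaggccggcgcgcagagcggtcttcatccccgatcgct
Dusp6, chr10:99262981-99263230, plus strand: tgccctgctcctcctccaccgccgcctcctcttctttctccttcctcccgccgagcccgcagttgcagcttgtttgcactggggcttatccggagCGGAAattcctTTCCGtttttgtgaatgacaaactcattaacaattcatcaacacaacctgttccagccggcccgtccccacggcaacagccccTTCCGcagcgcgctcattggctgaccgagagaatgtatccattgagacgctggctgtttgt
Spred2, chr11:19924192-19924441, plus strand: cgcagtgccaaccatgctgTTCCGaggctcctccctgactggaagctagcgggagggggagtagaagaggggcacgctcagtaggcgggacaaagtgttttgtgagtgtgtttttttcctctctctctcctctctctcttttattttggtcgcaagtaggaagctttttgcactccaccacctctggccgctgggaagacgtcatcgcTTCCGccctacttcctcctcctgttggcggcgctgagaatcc
Etv1, chr12:38779832-38780081, plus strand: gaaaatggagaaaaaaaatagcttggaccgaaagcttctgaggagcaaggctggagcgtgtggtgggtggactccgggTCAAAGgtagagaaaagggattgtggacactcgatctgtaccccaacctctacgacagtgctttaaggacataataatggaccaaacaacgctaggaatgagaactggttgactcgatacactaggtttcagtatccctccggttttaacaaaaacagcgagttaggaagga
RefSeq promoters of 7 of the 10 genes were searched, with 9 starts in all, and those of Dusp4, Etv4 and Spry4 were not. The ETS core was present before 3 of these 9 starts, against 25.2% of 32851 mouse promoters of the same length. Its matches began 155, 144 and 61 bases before the start of Dusp6, 231 and 42 bases before that of Spred2, and 17 bases before that of Spred1. CTTTGA was present before 1 of the 9 starts, 172 bases before the upstream start of Etv1, and in 13.8% of all promoters. Neither CCGGAAGT (2.88% of all promoters) nor TGANTCA (6.75%) was found before any of the 9. Any CCGGAAGT holds the core as well. A match gives letters within this window and not a bound site.

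The PEA3 factors differed among themselves. Etv5 stood at 8.07, 8.16 and 7.88 in controls 1 to 3, against 10.27, 10.13 and 10.55 in mutants 1 to 3. The lowest mutant pool was well above the highest control pool, and the mean rose 4.85-fold (2.28 ± 0.13, adjusted p = 1.90e-06). A further array row of Etv5 also rose (2.51 ± 0.27, adjusted p = 0.00282 in a fit of all rows). Etv4, from the same PEA3 group, stood at 6.63, 6.38 and 6.21 in controls 1 to 3, against 7.87, 7.93 and 8.03 in mutants 1 to 3. It rose 2.90-fold (1.54 ± 0.12, adjusted p = 1.57e-05), and its mutant pools lay closer together than its control pools. The control mean of Etv4 (6.41) lay within the range of the array medians, 6.37 to 6.47, whereas that of Etv5 was 8.04. Etv1 behaved otherwise. It gave 9.42, 9.47 and 9.54 in controls 1 to 3, against 9.67, 9.52 and 9.62 in mutants 1 to 3, so that the groups overlapped. Its change was 0.13 ± 0.09 (95% confidence interval -0.07 to 0.33, adjusted p = 0.439), and a further row of Etv1 gave 0.23 ± 0.10, adjusted p = 0.265 in a fit of all rows. The confidence interval for Etv1 lies below those of Etv4 (1.27 to 1.80) and Etv5 (1.99 to 2.56).

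Both ERK phosphatases rose. Dusp6, which acts on ERK in the cytoplasm, stood at 9.07, 8.74 and 8.90 in controls 1 to 3, against 10.35, 10.15 and 10.40 in mutants 1 to 3. All mutant pools lay above all control pools, and the increase was 2.63-fold (1.40 ± 0.11, adjusted p = 2.54e-05). Dusp4, a phosphatase of the nucleus, stood at 7.41, 7.20 and 7.09 in controls 1 to 3, against 7.95, 7.85 and 8.03 in mutants 1 to 3. The groups again did not overlap, and Dusp4 rose 1.63-fold (0.71 ± 0.11, adjusted p = 0.00144). The confidence intervals of the phosphatases, 1.14 to 1.65 for Dusp6 and 0.47 to 0.95 for Dusp4, do not overlap.

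Of the Sprouty genes, whose products hold back signaling from receptor tyrosine kinases, Spry2 and Spry4 passed the test and Spry1 did not. Spry2 gave 6.92, 7.36 and 7.24 in controls 1 to 3, against 8.15, 7.84 and 8.41 in mutants 1 to 3. Its standard deviation within each genotype was the largest of the 10 genes, yet the groups stayed apart, and the increase was 1.94-fold (0.96 ± 0.16, adjusted p = 0.00248). Spry4 gave 8.69, 8.61 and 8.72 in controls 1 to 3, against 9.50, 9.31 and 9.63 in mutants 1 to 3. Its control pools were nearly level, and it rose 1.75-fold (0.81 ± 0.11, adjusted p = 0.000551). Spry1 gave 9.57, 9.23 and 9.44 in controls 1 to 3, against 9.88, 9.62 and 9.999 in mutants 1 to 3. Control replicate 1 and mutant replicate 2 lay next to each other, and the change was 0.42 ± 0.13 (95% confidence interval 0.13 to 0.70, adjusted p = 0.0566). Without mutant replicate 2 the change of Spry1 was 0.52 with an adjusted p of 0.0209, and over all refits its adjusted p ran from 0.00647 to 0.173.

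The Spred genes, which encode Sprouty-related inhibitors of Ras and Raf activation, rose least among the genes that passed. Spred1 stood at 9.24, 9.14 and 9.28 in controls 1 to 3, against 9.70, 9.66 and 9.89 in mutants 1 to 3. The groups did not overlap, and the increase was 1.44-fold (0.53 ± 0.10, adjusted p = 0.00517). Spred2 gave 9.59, 9.57 and 9.72 in controls 1 to 3, against 10.05, 10.22 and 10.23 in mutants 1 to 3, which is an increase of 1.45-fold (0.54 ± 0.10, adjusted p = 0.00366). A further row of Spred2 rose as well (0.89 ± 0.13, adjusted p = 0.00970 in a fit of all rows). By size of change the genes ran from Etv5 through Etv4, Dusp6, Spry2, Spry4, Dusp4, Spred2, Spred1 and Spry1 to Etv1. The confidence interval of Etv5 lay above those of all the others, whereas those of every other pair of neighbours in this order overlapped. Differences between genes in their change were not tested.

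**Figure D2:**
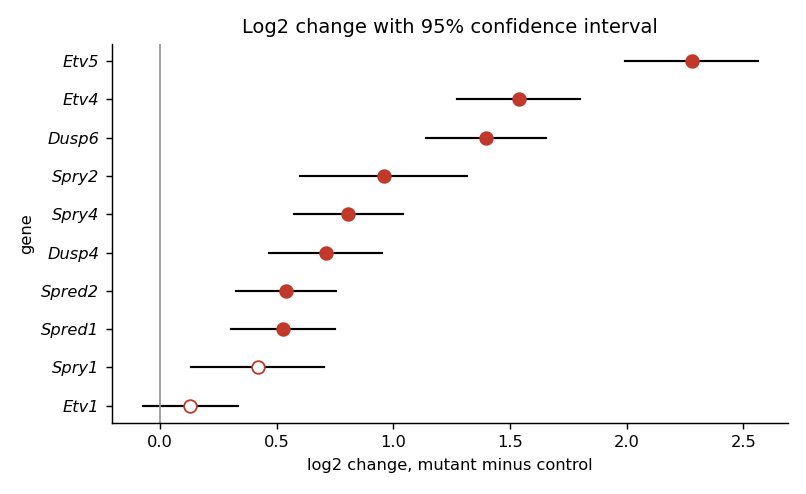
Log2 change from control to mutant pools (horizontal axis, mutant minus control) of each gene (vertical axis), in order of size. Circles are limma estimates over 3 pools per genotype, filled where the adjusted p was below 0.05, and lines are 95% confidence intervals. The interval of Etv5 (1.99 to 2.56) stands apart, and that of Etv1 (-0.07 to 0.33) spans 0.

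The mutant pools differed in their levels of these genes. Mutant replicate 2 had the lowest value of the 3 mutant pools in 8 of the 10 genes, and mutant replicate 3 had the highest in 9 of the 10. Over all genes mutant replicate 2 was lowest in 39.1% and mutant replicate 3 highest in 33.2%. Among the 1313 genes that were higher in the mutant pools, these shares were 57.7% and 46.9%. Relative to the control mean, the median over the 10 genes was 0.63 in mutant replicate 2, 0.77 in mutant replicate 1 and 0.88 in mutant replicate 3. Etv4 and Spred2, which were lowest in mutant replicate 1, were the exceptions at the low end, and Etv1, highest in mutant replicate 1, was the exception at the high end. Ctnnb1 and its targets Axin2, Lef1, Nkd1, Sp5 and Lgr5 were also lowest in mutant replicate 2 among the mutant pools, in 6 of 6 genes. Whether the extent of β-catenin activation in a pool has a part in this order was not tested. Each pool had its own array, so a difference between pools cannot be told apart from one between arrays.

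**Figure D3:**
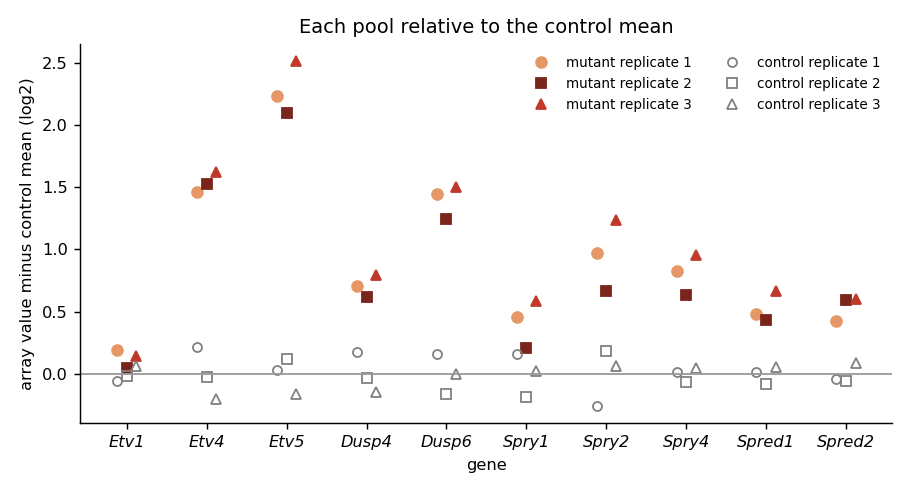
Array value of each pool minus the mean of the control pools (log2, vertical axis) for the 10 genes (horizontal axis). Filled markers are the 3 mutant pools and open markers the 3 control pools, and the marker shape gives the replicate number. Mutant replicate 2 (filled squares) is the lowest mutant pool in 8 genes and mutant replicate 3 (filled triangles) the highest in 9.

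Upstream of these genes, more FGF ligands rose than fell. Of 18 ligand genes, 6 were higher, 2 lower and 10 not past the test, with a median change of 0.12. Fgf3, a ligand of the epithelial receptor forms, stood at 5.61, 5.52 and 5.69 in controls 1 to 3, against 7.33, 6.74 and 7.998 in mutants 1 to 3. It rose 3.36-fold (1.75 ± 0.25, adjusted p = 0.000993), and its mutant pools were widely spread, with replicate 2 lowest and replicate 3 highest. Fgf10, the mesenchymal ligand of the pancreatic epithelium, stood at 6.35, 6.65 and 6.99 in controls 1 to 3, against 8.17, 7.98 and 8.19 in mutants 1 to 3, and it rose 2.74-fold (1.45 ± 0.15, adjusted p = 0.000130). Fgf2 (0.64 ± 0.11, adjusted p = 0.00327), Fgf20 (0.64 ± 0.12, adjusted p = 0.00492), Fgf9 (0.64 ± 0.11, adjusted p = 0.00284) and Fgf8 (0.42 ± 0.10, adjusted p = 0.0168) rose less, and Fgf16 (-0.48 ± 0.10, adjusted p = 0.00838) and Fgf1 (-0.43 ± 0.12, adjusted p = 0.0422) fell. Fgf8 lost its call without control replicate 1 (adjusted p = 0.0705) or mutant replicate 3 (adjusted p = 0.0626), and Fgf1 without any single pool other than mutant replicate 2 (adjusted p 0.0816 to 0.172). Some of these ligands gave low array values. The control means of Fgf3 (5.61), Fgf20 (5.82) and Fgf16 (5.51) lay below the array medians of 6.37 to 6.47.

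Among genes for FGF receptors, coreceptors and binding proteins, all that passed the test fell. Of 12 genes for FGF receptors, coreceptors and binding proteins, 5 were lower, 0 higher and 7 not past the test, with a median change of -0.13. Klb, the coreceptor for endocrine FGFs, fell 3.67-fold (-1.87 ± 0.13, adjusted p = 8.74e-06), and Fgfr4 fell 2.59-fold (-1.38 ± 0.11, adjusted p = 1.63e-05). Fgfr2, through whose epithelial form Fgf10 acts, stood at 10.23, 9.93 and 10.01 in controls 1 to 3, against 9.40, 9.08 and 9.33 in mutants 1 to 3. All its mutant pools lay below its control pools, and it fell 1.72-fold (-0.79 ± 0.12, adjusted p = 0.00141). The array row of Fgfr2 summarizes probes along the gene, so it does not separate the epithelial form from any other. Flrt2 (-0.64 ± 0.09, adjusted p = 0.00105) and Fgfr3 (-0.61 ± 0.10, adjusted p = 0.00276) fell too. Fgfr1 had a change of 0.25 ± 0.10, adjusted p = 0.146, and its mutant pools all lay above its control pools. Among 17 other receptor tyrosine kinases, 3 were higher, 4 lower and 10 not past the test, with a median change of -0.19. Ntrk3, a neurotrophin receptor (1.66 ± 0.09, adjusted p = 1.56e-06), the epidermal growth factor receptor Egfr (1.22 ± 0.12, adjusted p = 0.000112) and Pdgfrb (0.40 ± 0.10, adjusted p = 0.0208) rose. Ret, the receptor for GDNF-family ligands (-2.59 ± 0.09, adjusted p = 1.58e-07), Ntrk2 (-2.09 ± 0.15, adjusted p = 1.17e-05), the neuregulin receptor Erbb3 (-1.29 ± 0.13, adjusted p = 0.000125) and the collagen receptor Ddr2 (-0.99 ± 0.11, adjusted p = 0.000263) fell. Pdgfrb lost its call when control replicate 2 or 3, or mutant replicate 1 or 3, was left out (adjusted p 0.0579 to 0.106). The control mean of Ntrk3 (5.63) and the mutant means of Klb (5.57) and Ntrk2 (5.94) lay below the array medians of 6.37 to 6.47.

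**Figure D4:**
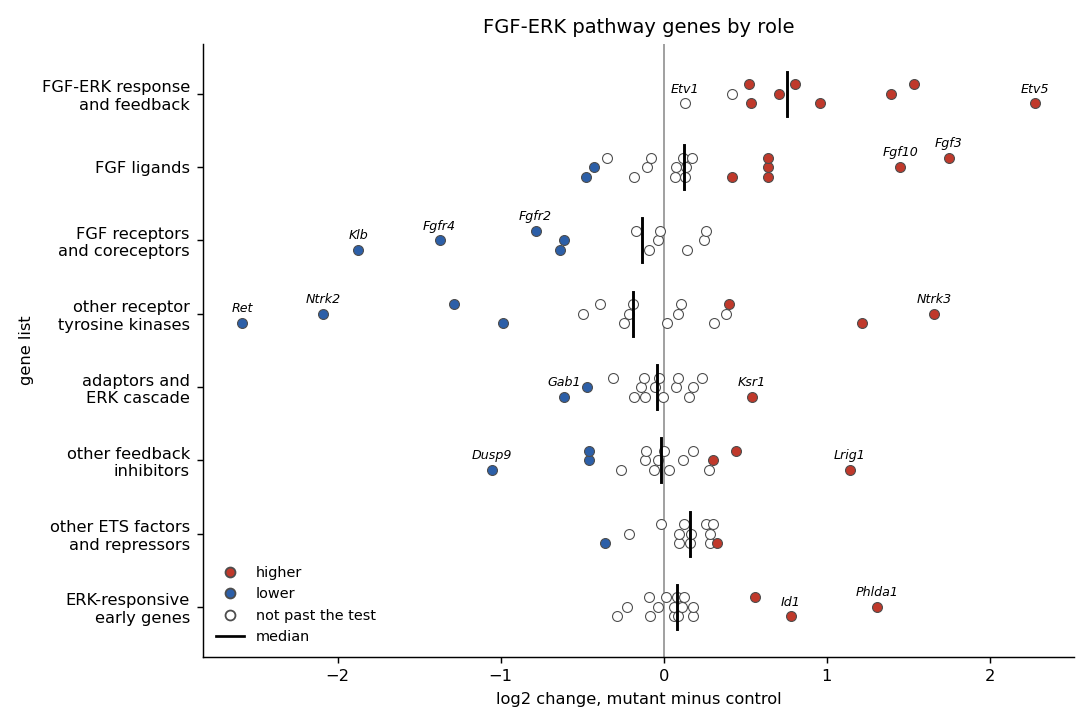
Log2 change (horizontal axis, mutant minus control) of each gene of the FGF-ERK pathway, in lists by role (vertical axis). Each circle is a gene, red where higher, blue where lower and open where it did not pass the test, and vertical bars are the medians of the lists. The median of the 10 response and feedback genes is 0.76, beside 0.12 for the ligands and -0.13 for the receptors.

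Between receptor and ERK, 3 genes passed the test. Among 16 adaptor and cascade genes tested, 1 was higher, 2 lower and 13 not past the test, with a median change of -0.04. Ksr1, a scaffold that brings Raf, MEK and ERK together, rose 1.45-fold (0.54 ± 0.10, adjusted p = 0.00598). The adaptor gene Gab1 fell 1.53-fold (-0.61 ± 0.10, adjusted p = 0.00263) and Sos2, an exchange factor for Ras, fell 1.38-fold (-0.47 ± 0.10, adjusted p = 0.00825).

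Other inhibitors of the pathway went both ways. Of 16 further feedback inhibitors, 3 were higher, 3 lower and 10 not past the test, with a median change of -0.01. Lrig1, an inhibitor of ErbB receptors, rose 2.21-fold (1.14 ± 0.12, adjusted p = 0.000179). Il17rd, an FGF antagonist also known as Sef (0.45 ± 0.13, adjusted p = 0.0438), and Spred3, the paralog of Spred1 and Spred2 (0.30 ± 0.08, adjusted p = 0.0397), rose by less. Il17rd lost its call without any single pool other than mutant replicate 2 (adjusted p 0.0785 to 0.159), and Spred3 without any single pool (adjusted p 0.0656 to 0.144). Spry3, the remaining Sprouty gene, had a change of 0.28 ± 0.09, adjusted p = 0.0694. Dusp9, another ERK phosphatase, fell 2.08-fold (-1.05 ± 0.14, adjusted p = 0.000559). Errfi1, an inhibitor of Egfr (-0.46 ± 0.10, adjusted p = 0.0122), and Dusp10, a phosphatase of the stress kinases (-0.46 ± 0.08, adjusted p = 0.00451), also fell. Dusp5, a nuclear ERK phosphatase, had a change of -0.06 ± 0.09, adjusted p = 0.764.

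Of 13 other ETS factors and repressors under ERK control, 1 was higher (Ets1, 0.33 ± 0.09, adjusted p = 0.0374), 1 lower (Etv6, -0.36 ± 0.10, adjusted p = 0.0429) and 11 not past the test, with a median change of 0.16. Ets1 lost its call without any single pool (adjusted p 0.0669 to 0.117), and Etv6 when control replicate 1 or 2, or mutant replicate 1 or 3, was left out (adjusted p 0.109 to 0.167). Of 17 early genes that respond to ERK among other signals, 3 were higher, 0 lower and 14 not past the test, with a median change of 0.08. Phlda1 stood at 8.76, 8.69 and 8.31 in controls 1 to 3, against 9.78, 9.76 and 10.14 in mutants 1 to 3, and it rose 2.48-fold (1.31 ± 0.15, adjusted p = 0.000206). Id1, which BMP signals also induce, rose 1.72-fold (0.78 ± 0.13, adjusted p = 0.00311), and Ccn1, which encodes a secreted matrix protein, rose 1.47-fold (0.56 ± 0.10, adjusted p = 0.00311). The values of the classical early genes Egr1 (-0.08 ± 0.10, adjusted p = 0.703) and Fos (0.06 ± 0.11, adjusted p = 0.794) overlapped between genotypes. Over these 7 lists together, 17 of 109 genes were higher and 17 lower, beside 6.59% higher and 7.53% lower over all genes. At an unadjusted p below 0.05 limma gave 26 of the 109 higher and 23 lower. By list, these were 6 higher and 3 lower among the ligands, 2 and 5 among the FGF receptors, 5 and 6 among the other receptor tyrosine kinases, and 1 and 3 among the adaptors and cascade genes. The further inhibitors had 4 higher and 4 lower, the other ETS factors and repressors 5 and 1, and the early genes 3 and 1. The other ETS factors and repressors had positive changes in 10 of 13 genes, with all mutant pools above all control pools in 5. Over all genes these shares were 57.5% and 16.9%.

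Cell type markers moved beside these genes. Of 9 markers of pancreatic epithelium 7 were lower, led by Pdx1 (change -4.16) and Cpa1 (-3.86), while Foxa2 (0.11) and Sox9 (-0.33) did not pass. The linear array values of the 9 summed to 16795 to 19433 in the control pools and 3949 to 4053 in the mutant pools. Cpa1 had the highest control mean of the list (13.17), so it weighed most in the control sums. The study found Pdx1 reduced within epithelial cells that had nuclear β-catenin, so these sums do not measure how much epithelium a pool held. Of 10 general epithelial markers 9 were lower, with Krt8 at -1.84 and Cdh1 at -1.68, and their sum was 11554 to 13591 in the controls and 5446 to 5991 in the mutants. Of 11 mesenchymal markers 4 were higher and 2 lower, with Prrx1 at -2.49 and Tcf21 at 1.26, and the sums overlapped (22278 to 23226 in the controls, 20704 to 22975 in the mutants). The study describes an expansion of mesenchymal cells positive for smooth muscle actin in mutants at E13.5. The gene for that actin, Acta2, is not in this list. The study lists Acta2 as higher in the mutants on these arrays, as it does the gut mesenchyme genes Foxf1, Foxf2 and Myocd. Vim had the highest level of the mesenchymal list (control mean 13.03) and a change of -0.02, so it weighed most in the sums. The sums therefore do not measure that expansion. All 7 endothelial markers had positive changes, with the mutant pools above all control pools in 5. Over all genes these shares were 57.5% and 16.9%. Of the 7 endothelial markers 2 passed the test, Erg (0.42) and Cdh5 (0.32), and the sums were 4797 to 5158 in the controls and 6078 to 6298 in the mutants. Cdh5 lost its call without any single pool (adjusted p 0.0561 to 0.153), and Erg when control replicate 1 or 3, or mutant replicate 1 or 3, was left out (adjusted p 0.0556 to 0.09996).

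All 5 neuronal and neural crest markers tested were lower, among them Dcx (-2.32) and Tubb3 (-0.66), with sums of 1300 to 1375 in the controls and 669 to 706 in the mutants. The study describes Tuj1-positive cells, which it reads as neural, around some large cysts of newborn mutants. It also lists the pancreatic genes Neurog3 and Neurod1 as lower in the mutants at E13.5. Which cells account for the fall of these 5 markers was not tested. Of 4 mesothelial markers 3 were lower, among them Lrrn4 (-0.94) and Wt1 (-0.52), with sums of 1788 to 2077 in the controls and 1097 to 1440 in the mutants. Wt1 lost its call when any control pool or mutant replicate 1 was left out (adjusted p 0.0673 to 0.0928). No macrophage or leukocyte marker passed (0 of 6, sums 1359 to 1711 in the controls and 1487 to 1871 in the mutants), and no erythroid marker did (0 of 3, sums 358 to 656 in the controls and 404 to 469 in the mutants). At an unadjusted p below 0.05 limma gave 6 endothelial markers higher and 0 lower, 5 mesenchymal markers higher and 3 lower, and 1 higher and 0 lower in each of the leukocyte and erythroid lists. The pancreatic epithelial list then had 0 higher and 8 lower, the general epithelial list 0 and 10, the neuronal list 0 and 5, and the mesothelial list 0 and 3. The linear values of the 10 FGF-ERK response genes summed to 4135 to 4432 in the controls and 7117 to 8470 in the mutants. They thus rose in pools whose epithelial, neuronal and mesothelial markers were mostly lower, whose mesenchymal markers went both ways and whose summed endothelial markers were above those of every control pool, and the part of these shifts in their increase was not tested.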

How the data were processed

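RNA from 6 pools of E13.5 mouse pancreata, 3 control and 3 mutant, had been hybridised to Affymetrix Mouse Gene ST arrays. The deposited values are log2 expression values per transcript cluster, with array medians of 6.37 to 6.47. Background correction, summarization, normalization and genome build: not given in the sources used here. Precision rests on the number of arrays, and p-values measure the spread between pools that the labels call biological replicates.

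Rows were named through the platform annotation: 21789 of 35556 rows carried a single symbol, 1621 several and 12146 none. The row with the highest mean stood for each of 19938 genes. Etv1, Etv5 and Spred2 had a further row. Cyr61 was found as Ccn1 through RefSeq synonyms (GRCm38.p6). Genotypes were compared by lmFit and eBayes of limma (version 3.58.1, R 4.3.3), the method the study names, with no covariate or filter, Benjamini-Hochberg adjustment over all genes and a threshold of 0.05. The script was first tested on simulated data. Tables and figures were made with pandas 2.3.3 and matplotlib 3.10.9 under Python 3.11.15. Alternatives were the replicate block, leaving out each pool, other scalings, rows, filters, priors and array weights, and other thresholds.

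The genes and lists were chosen with earlier results of these data known. Named beside the 10 genes were up to 3 called genes per pathway list and up to 2 per marker list with the largest change (or the smallest p where none passed, if shown), Ctnnb1 with 5 targets, and the 3 genes whose profiles were nearest to that of the gene with the largest change. Chosen for naming only after inspection of the values were 19 genes: Fgf20, Fgf9, Fgf8, Fgf16, Fgf1, Flrt2, Fgfr3, Fgfr1, Egfr, Pdgfrb, Erbb3, Ddr2, Il17rd, Spred3, Dusp10, Egr1, Fos, Dusp5 and Spry3. The motifs too were picked with the expression values known. Some further genes of the lists are not reported here.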

Additional observations from a re-analysis of the deposited data

How the results depend on the processing

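Of the 10 genes, 8 or 9 were higher and none was lower under each of 16 alternatives, and the 8 genes kept their call in all 14 refits. Over these refits the change of Etv5 ran from 2.16 to 2.39 and that of Spred1 from 0.46 to 0.57. Spry1 passed in 7 of the 14 (replicate block, arrays centred on their medians, quantile normalization, genes above the median level, trended and robust prior, array weights, and without mutant replicate 2), and Etv1 in none. Calls lost with all rows in the fit included Errfi1 (adjusted p = 0.0503).

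The other pathway genes that were higher numbered 27 with array weights and 26 at an unadjusted p below 0.05, against 17. The marker genes that were higher numbered 15 and 13 under these settings, 1 with all rows in the fit and 1 at an adjusted p below 0.01, against 6, and leaving out 1 pool gave 2 (without mutant replicate 1 or 3), 3 (without control replicate 2 or 3) or up to 5. Over all genes, against 1313 higher and 1502 lower, array weights gave 3025 and 2422, an unadjusted p below 0.05 gave 2695 and 2386, all rows in the fit gave 751 higher, an adjusted p below 0.01 gave 723 higher, and leaving out 1 pool gave 843 (without mutant replicate 1) to 1328 higher (without mutant replicate 2). The weight of mutant replicate 1 was 7.96, against 0.39 to 1.38 for the others.

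The labels do not say whether same-numbered control and mutant pools were paired. The deviations of same-numbered pools from their group means correlated at 0.01, -0.15 and -0.05, and those of differently numbered pools at -0.19 to 0.19. With so few pools these correlations cannot decide whether the pools were paired. With the replicate number as a block, 9 of the 10 genes were higher, as were 1011 of all genes, and 1274 were lower.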

Other observations

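The profile of Etv5 over the 6 arrays, centred on the mean of the gene, was closest to those of Nampt, Gpbar1 and Kcna2, at Euclidean distances of 0.22, 0.25 and 0.38 (log2). Nampt, an enzyme of NAD synthesis, changed by 2.39 ± 0.14, adjusted p = 2.24e-06 (log2, ± standard error, limma). Gpbar1, a bile acid receptor, changed by 2.24 ± 0.12, adjusted p = 1.42e-06, and Kcna2, a potassium channel, by 2.15 ± 0.11, adjusted p = 1.09e-06. None of the other 9 FGF-ERK response genes was as close to Etv5 as these 3. The values were centred but not scaled, so the distance grows with any difference in the size of the change. Since Etv5 had the largest change of the FGF-ERK response genes, their greater distance does not show a different pattern over the pools.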
